A study of Mus musculus with 24 samples.

Results

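Murine BCR-ABL1+ B-cell acute lymphoblastic leukemia (B-ALL) cells that had received only ethanol (EtOH) were compared after 48 h and after 24 h, which gives the change of the vehicle cells over one more day of culture. The comparison used 6 of the 24 libraries in the series, 3 for each time, and they were chosen by the treatment and time in the sample labels. The cells carry Cre-ERT2, a Cre recombinase that 4-hydroxytamoxifen (4-OHT) switches on, and both Foxo1 alleles are floxed (Foxo1 fl/fl). Ethanol was the solvent of 200 nM 4-OHT, was given in a matching amount that the labels do not state, and left Foxo1 undeleted. Cells of both times grew in IMDM with 20% fetal bovine serum, and the labels name bone marrow as the source. The other groups used here are DMSO vehicle cells and 4-OHT cells at the same times, again with 3 libraries each, all of the same engineered cells. No cells without a solvent and no cells before treatment were among the libraries used here. The labels do not say whether the replicates were separate cultures, how many mice or clones the cells came from, or whether the medium was renewed, so the p-values reflect how far these libraries differ among themselves, which may be technical.

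BCR-ABL1 is a constantly active tyrosine kinase that drives B-cell precursors to divide without the cytokines they normally need. Such cells take up amino acids, sugars and iron at a high rate. When nutrients run short, cells can change the expression of genes through stress pathways such as the one that runs through the transcription factor ATF4. No nutrient level was part of the data used here. In bulk RNA, fewer cells of one kind and less RNA per cell cannot be told apart.

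Values are log2 expression values as the authors normalised and deposited them, and every change given below is the 48 h mean minus the 24 h mean on that scale, with its standard error (n = 3 libraries per time). Depth is unknown, because the values hold no counts. These library differences are smaller than fold changes on counts would be: in the 4-OHT comparisons of the same tables, the median ratio of the library difference to the log2 fold change in the authors' deposited table was 0.661 at 24 h (1399 genes) and 0.656 at 48 h (2866 genes). Of 41444 genes, 11470 lay above the low filter and were tested with limma. A gene is called higher or lower where its adjusted p is under 0.05.

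The leukemia cells changed broadly but by small steps over the extra day. Time, harvest and any run that the 24 h and 48 h libraries do not share cannot be told apart. Genes of the amino acid stress response and the enzymes that load tRNAs rose together, genes of DNA replication fell together, and smaller numbers of chaperone genes fell and of sterol and fatty acid genes rose. Lta, which encodes the cytokine lymphotoxin alpha, was the gene with the largest rise among those whose mean over all 24 libraries was at or above the median, and Tmprss3, which encodes a membrane serine protease, the one with the largest fall. Of the 11470 tested genes, 2908 were called (25.4%), 1534 of them higher (13.4%) and 1374 lower (12%), and 4515 had an unadjusted p under 0.05. The median size of a called change was 0.24, with quartiles of 0.18 and 0.33, and 205 called genes moved by at least 0.5 and 13 by at least 1.

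The 3 libraries of one time did not overlap with those of the other in 5103 genes (44.5%), and 2894 of the called genes were among them. Any 2 libraries of the same time differed by a root mean square of 0.163 to 0.174, and 2 libraries of different times by 0.208 to 0.260. The first principal component of the 6 libraries held 50.9% of their variance and put the 24 h libraries at -10.6, -11.0 and -8.9 and the 48 h libraries at 6.4, 10.3 and 13.6. The number of calls fell by more than a factor of 1.5 without one of 4 libraries: to 1704 without 48 h replicate 3, 1751 without 24 h replicate 1, 1810 without 48 h replicate 2 and 1892 without 24 h replicate 2. Aligning the library medians, which lay at 9.19 at 24 h and at 9.21 to 9.23 at 48 h, moved the split from 1534 higher and 1374 lower to 1240 higher and 1762 lower, so that 41.3% of calls were higher in place of 52.8%. With all 24 libraries in one model 1332 genes were called, and the counts of the lists described below fell with them: to 20 higher ATF4 targets, 13 higher synthetases and 18 lower replication genes. In that model 4 lysosome genes, 4 ERK-induced genes, 4 surface antigens, 3 FOXO targets, 2 NF-kB targets, 2 NRF2 genes, 2 glycolysis genes and 0 ethanol and aldehyde genes were higher. The lower calls became 3 for nucleotide synthesis, 2 for the B-lineage factors and 2 for the mitochondrially encoded genes.

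**Figure D1:**
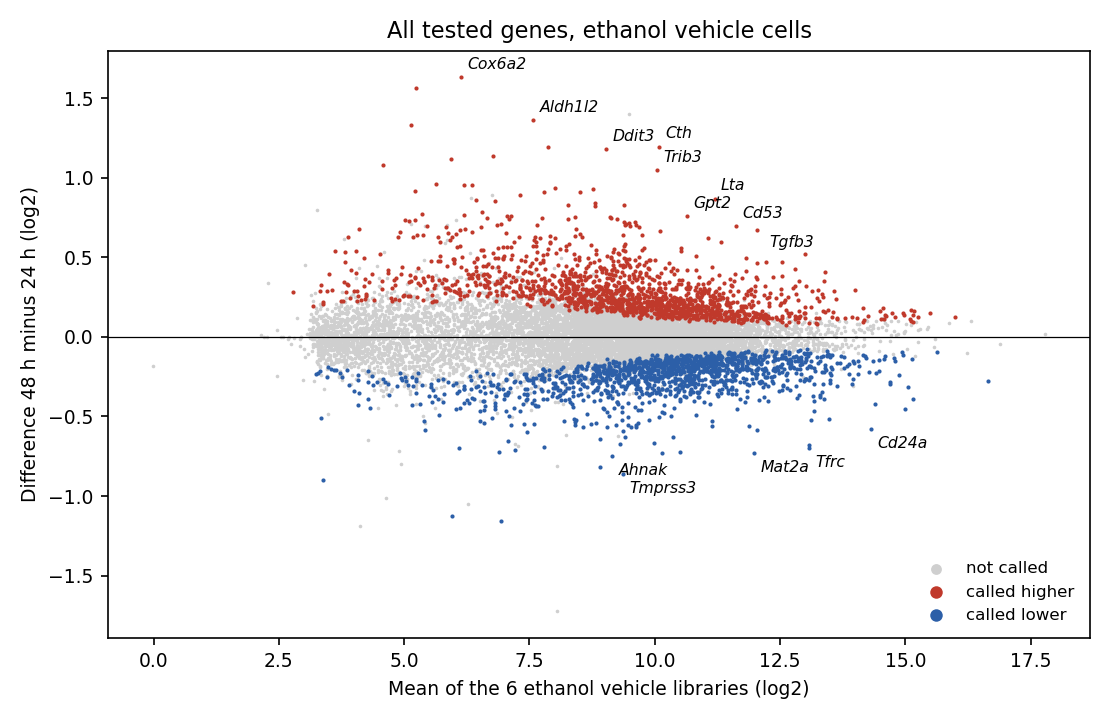
Change between 24 h and 48 h in ethanol vehicle cells (log2, vertical axis) against the mean of the 6 libraries (log2, horizontal axis), with 1 point per tested gene, red where called higher and blue where called lower. The 1534 higher and 1374 lower calls sit on both sides of 0 at all expression levels, and most moved by less than 0.5.

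The 12 largest rises and the 12 largest falls were named under the same condition on the mean, and only where the 24 h and 48 h libraries did not overlap. Lta (chr17:35203165-35205351, GRCm38, minus strand) read 10.73, 10.76 and 10.79 at 24 h and 11.46, 11.67 and 11.76 at 48 h, a rise of 0.87 ± 0.067 (limma adjusted p = 6.67e-04). The 48 h libraries all lay above the 24 h libraries, by more than the spread within either time. Tgfb3, a growth factor of the TGF-beta family, read 11.60, 11.73 and 11.76 and then 12.33, 12.37 and 12.41 (0.67 ± 0.045). Cd53, a tetraspanin of leukocytes, went from 11.29, 11.23 and 11.30 to 11.88, 11.98 and 12.05 (0.70 ± 0.046). Both show gaps between times that are several times as wide as the spread within a time. Gpt2, the mitochondrial alanine aminotransferase, rose by 0.76 ± 0.076, Gpsm2, which orients the mitotic spindle, by 0.83 ± 0.12, and Hvcn1, a voltage-gated proton channel of B cells, by 0.69 ± 0.079. The other 6 of the 12 largest rises were Clec2i, Cep162, Cd22, Adssl1, Bhlhe40 and Dennd2d, which moved by 0.66 to 0.74. Cd22, an inhibitory lectin of B cells, rested on 48 h replicate 3, since its adjusted p of 0.0139 became 0.0504 without that library.

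Among the falls, Tmprss3 read 9.81, 9.79 and 9.78 at 24 h and 9.16, 8.94 and 8.70 at 48 h, a fall of 0.86 ± 0.10 (log2) in which the 48 h libraries also spread more than the 24 h libraries. Tfrc, the transferrin receptor through which cells take up iron (chr16:32608920-32632794, plus strand), read 13.40, 13.43 and 13.44 and then 12.87, 12.76 and 12.55, so it fell by 0.70 ± 0.068. Mat2a, which makes the methyl donor S-adenosylmethionine, read 12.40, 12.31 and 12.35 and then 11.79, 11.54 and 11.55, so it fell by 0.73 ± 0.064. As for the rises, these genes were named only where the libraries of the times did not overlap, which held for 44.5% of tested genes. Slc5a9, a sodium-coupled sugar transporter, fell by 0.73 ± 0.083, and Mir17hg, the host transcript of an oncogenic microRNA cluster, fell by 0.67 ± 0.054. Cd24a, a surface antigen of B-cell precursors and among the most abundant transcripts named here, read 14.60, 14.59 and 14.61 and then 14.16, 13.98 and 13.93, so it fell by 0.58 ± 0.053. The remaining falls were Ahnak, Ankrd10, Msh5, Slamf6, Id3 and Mdn1, of 0.58 to 0.75. All 24 genes kept their call without each library in turn, apart from Cd22.

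ATF4 is the transcription factor that cells make when uncharged tRNAs, misfolded protein or other stress slows translation, and it switches on genes for amino acid synthesis, amino acid import and tRNA charging. Of 31 tested ATF4 targets, 23 rose and 1 fell, against 13.4% and 12% of all tested genes, and their median change was 0.40 where that of all tested genes was 0.00. Cth, which makes cysteine, read 9.47, 9.33 and 9.65 at 24 h and 10.51, 10.68 and 10.85 at 48 h (1.20 ± 0.099, limma adjusted p = 6.94e-04). Trib3, a pseudokinase that restrains the same pathway, read 9.56, 9.53 and 9.48 and then 10.40, 10.53 and 10.80 (1.05 ± 0.089). Chac1, which breaks down glutathione, read 9.08, 9.08 and 9.06 and then 9.66, 9.83 and 9.86 (0.71 ± 0.057). In each of these genes the lowest 48 h library was above the highest 24 h library. Aldh1l2, a mitochondrial folate enzyme, was at a lower level, with 6.75, 7.01 and 6.93 followed by 8.07, 8.20 and 8.50, and had the largest rise of the list (1.36 ± 0.12).

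Members for each arm of the pathway rose. Asns, asparagine synthetase, went from 11.80, 11.79 and 11.84 to 12.16, 12.31 and 12.36 (0.46 ± 0.048). Serine synthesis was represented by Phgdh (0.25 ± 0.029) and Psph (0.51 ± 0.055), and mitochondrial one-carbon metabolism by Mthfd2 (0.32 ± 0.031). Among importers, Slc7a5 and Slc3a2, the 2 chains of the large neutral amino acid transporter, rose by 0.41 ± 0.041 and 0.47 ± 0.056, and Slc7a3, a cationic amino acid transporter, by 0.96 ± 0.12. The transcription factors Ddit3 (CHOP), Atf3, Cebpb, Cebpg and Atf4 itself rose by 1.18, 0.86, 0.96, 0.29 and 0.31. The stress regulators Sesn2 and Nupr1 rose by 0.75 and 1.19. Slc38a2, a glutamine and neutral amino acid transporter, was the member that fell, by 0.20 ± 0.031. The members without a call were Stc2, Slc1a5, Psat1, Ppp1r15a, Shmt2, Slc7a1 and Atf5. Leaving out each library in turn left 22 or 23 members higher.

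The cytosolic aminoacyl-tRNA synthetases join each amino acid to its tRNA. Of 20 tested, 15 rose and none was called lower by limma (1 was lower at an unadjusted p under 0.05), with a median of 0.22. Among all tested genes 13.4% were higher and 12% lower. Sars, the seryl enzyme, read 12.31, 12.40 and 12.33 at 24 h and 12.65, 12.76 and 12.77 at 48 h (0.38 ± 0.040). Nars and Eprs, the asparaginyl enzyme and the fused glutamyl and prolyl enzyme, rose by 0.36 ± 0.041 and 0.29 ± 0.031. The enzymes without a call were Farsa, Qars, Rars, Hars and Vars. Without each library in turn, 14 or 15 rose, and 1 was called lower once library medians were aligned.

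**Figure D2:**
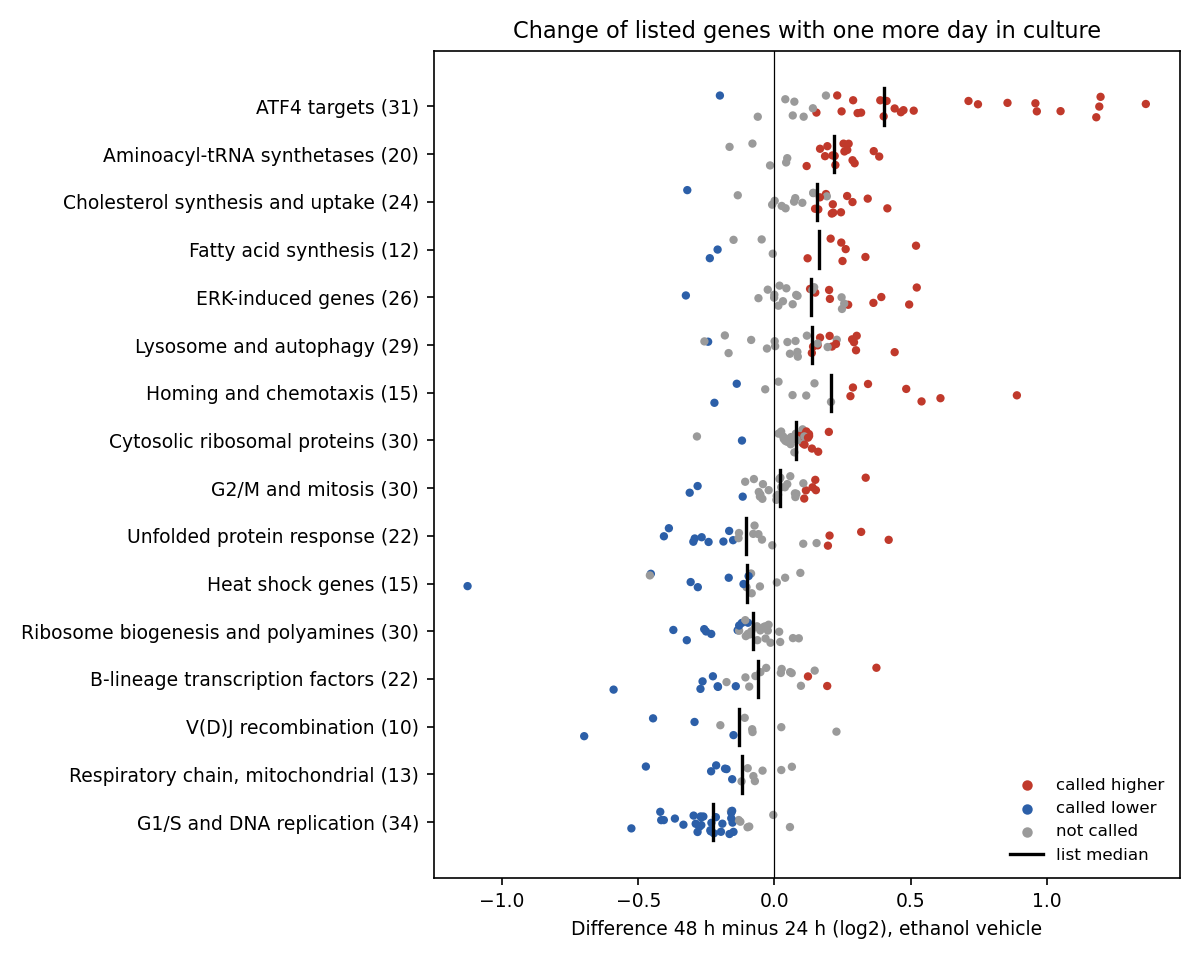
Change from 24 h to 48 h (log2) of each tested member of 16 gene lists in ethanol vehicle cells, with the number tested in brackets, red and blue for genes called higher and lower, grey for genes not called and a black bar at the list median. ATF4 targets reach from -0.20 to 1.36 around a median of 0.40, while the replication genes lie between -0.52 and 0.06 around a median of -0.23.

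The promoters of ATF4 targets were searched because these genes rose together. The list was drawn up as targets of ATF4, so a higher share of the ATF4 element in it does not depend on the change over time. The letters TGATGNAA, the composite element bound by ATF4 with a C/EBP partner, were sought on both strands in the 300 bases from 250 before to 50 after each start site, in RefSeq's promoter sequences of GRCm38.p6. They were found in 7 of the 26 tested targets that have an entry (26.9%), in 2.65% of the 8406 tested genes with one and in 3.97% of all 32851 promoters. The 7 genes were Atf3, Trib3, Asns, Chac1, Slc1a4, Nupr1 and Pck2, and each of them was called higher. Of the 26 targets with an entry 20 were called, so most members without a match were called too. A match describes the letters of the window and is neither a bound site nor a cause. The promoters of 4 of them are shown from 5′ to 3′ on the strand of the gene, with the match in capitals.
Chac1 (chr2:119350992-119351291, plus strand): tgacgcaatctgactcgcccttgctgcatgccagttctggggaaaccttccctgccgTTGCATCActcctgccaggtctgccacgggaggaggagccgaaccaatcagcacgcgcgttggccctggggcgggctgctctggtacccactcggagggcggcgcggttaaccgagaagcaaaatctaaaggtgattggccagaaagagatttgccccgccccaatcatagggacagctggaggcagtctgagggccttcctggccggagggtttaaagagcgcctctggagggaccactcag
Trib3 (chr2:152344011-152344310, minus strand): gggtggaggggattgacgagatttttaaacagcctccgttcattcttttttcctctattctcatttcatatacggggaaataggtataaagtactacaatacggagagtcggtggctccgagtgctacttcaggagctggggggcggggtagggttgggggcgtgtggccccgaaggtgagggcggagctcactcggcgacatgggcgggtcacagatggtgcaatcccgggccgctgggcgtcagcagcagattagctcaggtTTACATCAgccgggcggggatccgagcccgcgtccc
Atf3 (chr1:191183284-191183583, minus strand): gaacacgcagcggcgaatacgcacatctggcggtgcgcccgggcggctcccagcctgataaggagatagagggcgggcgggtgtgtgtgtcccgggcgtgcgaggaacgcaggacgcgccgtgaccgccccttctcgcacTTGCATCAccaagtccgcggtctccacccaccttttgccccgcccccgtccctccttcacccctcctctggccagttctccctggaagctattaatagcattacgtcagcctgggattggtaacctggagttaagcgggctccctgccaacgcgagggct
Asns (chr6:7693160-7693459, minus strand): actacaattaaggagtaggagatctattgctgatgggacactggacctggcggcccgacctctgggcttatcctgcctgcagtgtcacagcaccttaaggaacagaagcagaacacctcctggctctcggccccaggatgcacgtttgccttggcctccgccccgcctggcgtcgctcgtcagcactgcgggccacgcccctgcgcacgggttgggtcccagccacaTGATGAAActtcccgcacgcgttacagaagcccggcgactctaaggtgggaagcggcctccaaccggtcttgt
In Chac1, Trib3 and Atf3 the match reads on the strand opposite to the gene and in Asns on the same strand. In Trib3 it lies after the start site. No match overlapped another one.

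DNA replication depends on genes that E2F factors switch on as a cell passes from G1 into S phase. Of 34 tested genes of the G1/S transition and replication, 27 fell and none was called higher by limma (none at an unadjusted p under 0.05 either), with a median of -0.23 against 0.00 for all tested genes and 12% lower calls among them. Cdc6, which loads the replicative helicase onto origins, read 9.98, 9.95 and 9.94 at 24 h and 9.55, 9.50 and 9.58 at 48 h, a fall of 0.42 ± 0.040 (limma adjusted p = 9.1e-04). Mcm7, a subunit of that helicase, read 12.73, 12.71 and 12.66 and then 12.46, 12.35 and 12.29, so it fell by 0.33 ± 0.044. The libraries of the 2 times did not overlap in either gene. The other helicase subunits Mcm2, Mcm3, Mcm4, Mcm5 and Mcm6 fell by 0.15 to 0.26. Pcna, the sliding clamp of the polymerases, fell by 0.37 ± 0.050, Rrm2, a subunit of ribonucleotide reductase, by 0.41 ± 0.055, and E2f1 itself by 0.42 ± 0.059. Ccne2, a cyclin of S phase entry, had the widest fall (0.52 ± 0.11), with 10.28, 10.31 and 9.87 at 24 h and 9.71, 9.63 and 9.54 at 48 h. The genes without a call were Mcm10, Orc6, Cdc45, Prim1, Gins2, Rfc4 and Ccna2.

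The number of replication genes called lower was 17 without 24 h replicate 2 and 18 without 48 h replicate 3, and 19 to 26 without each of the other libraries. Of the 23 tested genes of nucleotide and one-carbon synthesis, 7 fell and 1 rose (Mthfd2, already named), against 12% and 13.4% of all tested genes. Among the lower ones were Tyms (-0.23 ± 0.043) and Cad (-0.29 ± 0.043), which serve thymidine and pyrimidine synthesis. The replication-dependent histones had 1 lower call among 17 tested and none higher, with 4 lower and none higher at an unadjusted p under 0.05.

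E2F motifs were sought in the same promoter windows, as the letters TTTCCCGC and TTTGGCGC on both strands. They were found in 9 of 27 replication genes with an entry (33.3%), in 3.66% of the tested genes with one and in 1.56% of all promoters. The 9 were Cdc6, Cdt1, Mcm3, Mcm5, Mcm6, Mcm7, Rfc3, Pola1 and Pold1, each of them called lower. Of the 27 genes with an entry 22 were called lower, so most members without a match were called too. The promoters of 4 of these genes are shown, 5′ to 3′ on the strand of the gene, with matches in capitals.
Cdc6 (chr11:98907901-98908200, plus strand): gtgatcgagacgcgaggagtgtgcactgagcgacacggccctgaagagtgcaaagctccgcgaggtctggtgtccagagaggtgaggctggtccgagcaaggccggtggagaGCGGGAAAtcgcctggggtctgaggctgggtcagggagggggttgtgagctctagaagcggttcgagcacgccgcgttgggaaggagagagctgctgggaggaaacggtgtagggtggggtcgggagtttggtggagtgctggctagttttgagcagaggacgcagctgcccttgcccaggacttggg
Mcm5 (chr8:75109259-75109558, plus strand): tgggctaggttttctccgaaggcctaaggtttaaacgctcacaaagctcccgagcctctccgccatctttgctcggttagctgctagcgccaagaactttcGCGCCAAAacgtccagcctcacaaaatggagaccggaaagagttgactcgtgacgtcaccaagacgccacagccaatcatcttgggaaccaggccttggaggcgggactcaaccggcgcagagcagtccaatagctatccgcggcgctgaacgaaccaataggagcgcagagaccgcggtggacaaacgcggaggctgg
Mcm7 (chr5:138171834-138172133, minus strand): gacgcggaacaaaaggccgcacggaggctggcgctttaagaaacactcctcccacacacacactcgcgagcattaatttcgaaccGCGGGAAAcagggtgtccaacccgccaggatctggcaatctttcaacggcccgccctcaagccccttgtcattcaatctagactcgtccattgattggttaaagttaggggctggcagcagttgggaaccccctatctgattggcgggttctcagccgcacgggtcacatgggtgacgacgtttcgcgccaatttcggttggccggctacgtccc
Mcm6 (chr1:128359656-128359955, minus strand): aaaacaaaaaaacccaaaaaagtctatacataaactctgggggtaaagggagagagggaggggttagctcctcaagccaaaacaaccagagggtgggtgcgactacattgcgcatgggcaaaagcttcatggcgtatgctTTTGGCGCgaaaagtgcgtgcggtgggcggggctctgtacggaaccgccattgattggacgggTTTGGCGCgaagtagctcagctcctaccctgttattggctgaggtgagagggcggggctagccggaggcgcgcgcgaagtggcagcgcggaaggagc
Cdc6, Mcm5 and Mcm7 hold 1 match each and Mcm6 holds 2 that do not overlap. As above, a match is a description of the letters. Since E2F factors switch on genes of this kind, a higher share in the list does not depend on the change over time.

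Among 30 genes of G2 and mitosis, 6 rose and 3 fell, close to the 13.4% and 12% of all tested genes, with a median of 0.02. Mki67, the marker of cycling cells, read 13.77, 13.84 and 13.77 at 24 h and 13.52, 13.54 and 13.39 at 48 h, so it fell by 0.31 ± 0.043, and Cenpf, a kinetochore protein, fell by 0.28 ± 0.038. The spindle factor Tpx2 rose by 0.15 ± 0.028. The cyclin genes Ccnb1 and Ccnb2, the kinase gene Cdk1 and Top2a were not called. When library medians were aligned, 2 genes of the list were higher and 4 lower, and 2 were higher without 24 h replicate 1, 48 h replicate 2 or 48 h replicate 3. None was higher with all 24 libraries in one model, where 2 were lower. Of 17 D cyclins, CDK inhibitors and quiescence genes, 3 rose and 3 fell: the inhibitors Cdkn1a (0.62 ± 0.13) and Cdkn2a (0.25 ± 0.031) and the pocket protein gene Rb1 (0.36 ± 0.063) rose, whereas the kinases Cdk6 and Cdk4 fell by 0.34 ± 0.029 and 0.12 ± 0.028 and the inhibitor Cdkn2c fell by 0.23 ± 0.043.

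Chaperone genes of the endoplasmic reticulum and the cytosol were in part called lower. Of 22 genes of the unfolded protein response, 9 fell and 4 rose, against 12% and 13.4% of all tested genes. Hspa5 (BiP), the main chaperone of the endoplasmic reticulum, read 13.57, 13.53 and 13.59 at 24 h and 13.19, 13.14 and 13.19 at 48 h, so it fell by 0.39 ± 0.029 (limma adjusted p = 6.65e-04). Calr and Hsp90b1, chaperones of the same compartment, fell by 0.41 ± 0.037 and 0.30 ± 0.025. The 48 h libraries of Hspa5 lay well below the 24 h libraries and close to each other. The 4 that rose were the stress sensor Atf6 (0.42 ± 0.035), the transcription factor Xbp1 (0.32 ± 0.050), Herpud1 (0.20 ± 0.034) and Sel1l (0.20 ± 0.056), the last 2 being parts of protein disposal from that compartment. Of 15 heat shock genes, 7 fell and none was called higher by limma (none at an unadjusted p under 0.05), among them Hspa8, which read 15.26, 15.18 and 15.25 and then 14.94, 14.68 and 14.71 and fell by 0.45 ± 0.064. Without 24 h replicate 1, 24 h replicate 3 or 48 h replicate 2 the heat shock count dropped to 3, and without 48 h replicate 3 to 4. With all 24 libraries in one model 4 genes of the unfolded protein response and 3 heat shock genes fell.

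Ribosome genes gave small changes. Of 30 genes of ribosome biogenesis and polyamine synthesis, 9 fell and none was called higher (1 at an unadjusted p under 0.05), with a median of -0.08 and against 12% lower among all tested genes. Polr1b, a subunit of RNA polymerase I, fell by 0.37 ± 0.057, Utp20, a processing factor of the small subunit, by 0.32 ± 0.052, and Nop56, a core protein of box C/D small nucleolar particles, by 0.25 ± 0.039. The count was 5 without 48 h replicate 2, and 6 without 24 h replicate 3 or 48 h replicate 3, 5 with no variance trend, 6 with quantile normalisation and 0 with all 24 libraries in one model. Of 30 cytosolic ribosomal protein genes, 11 rose and 1 fell around a median of 0.08, against 13.4% and 12% of all tested genes. The number higher, however, was 2 without 24 h replicate 1 or 24 h replicate 2 and 4 without 48 h replicate 3. It was 6 without 24 h replicate 3 or 48 h replicate 2, and 5 with aligned medians. It was 18 with quantile normalisation, 7 with no low filter, 3 with no variance trend and 0 with all 24 libraries in one model. The MYC family member Mycn rose by 0.29 ± 0.039, and Myc was not called (-0.00). Of the 10 genes of that network 2 rose and 4 fell, against the same 13.4% and 12%. The 4 lower calls became 2 without 24 h replicate 2 or 48 h replicate 3.

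Of 24 genes of cholesterol synthesis and uptake, 12 rose and 1 fell, against 13.4% and 12% of all tested genes, with a median of 0.15. Lss, which closes the sterol rings, read 9.01, 9.10 and 9.02 at 24 h and 9.42, 9.48 and 9.47 at 48 h (0.41 ± 0.046). Fdps, an enzyme of isoprenoid synthesis, and Srebf2, the transcription factor of the pathway, rose by 0.34 ± 0.039 and 0.24 ± 0.033. Sqle, which oxidises squalene, was not called. Of 12 genes of fatty acid synthesis, 7 rose and 2 fell. Scd2, a stearoyl-CoA desaturase, read 12.65, 12.81 and 12.78 and then 13.29, 13.27 and 13.24 (0.52 ± 0.041), and Srebf1 rose by 0.33 ± 0.052. Elovl6 and Acaca, which elongate fatty acids and supply their building block, fell by 0.24 ± 0.040 and 0.21 ± 0.048. Without 24 h replicate 1, 24 h replicate 3 or 48 h replicate 2 the 7 rising fatty acid genes became 4. With all 24 libraries in one model 2 cholesterol genes and 1 fatty acid gene were higher.

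Genes that mark B-cell precursors moved in both directions. Among all tested genes, 13.4% were called higher and 12% lower. The recombinase genes Rag1 and Rag2, which cut immunoglobulin genes, were at low levels and fell: Rag1 read 6.53, 6.44 and 6.33 at 24 h and 5.90, 5.76 and 5.55 at 48 h (a fall of 0.70 ± 0.10), and Rag2 fell by 0.44 ± 0.094. Of the 10 genes of V(D)J recombination 4 fell, the others being the repair genes Prkdc and Xrcc6, and limma called none higher (1 at an unadjusted p under 0.05). Of 22 B-lineage transcription factors 7 fell and 3 rose, the share higher being near that of all tested genes. Pax5, which holds cells in the B lineage, read 13.21, 13.14 and 13.08 and then 12.98, 12.92 and 12.74, so it fell by 0.26 ± 0.061. Id3, which blocks E proteins, fell by 0.59 ± 0.092, and Myb, Ebf1, Tcf3, Bcl11a and Runx1 fell by 0.14 to 0.27. Irf8, a factor of B-cell and myeloid development, rose by 0.37 ± 0.035, and Spib and Irf4 rose by 0.19 ± 0.042 and 0.12 ± 0.031. The 7 lower calls became 4 without 24 h replicate 1.

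Among 21 genes of the pre-B-cell receptor and its signalling, 6 fell and 4 rose, against 12% and 13.4% of all tested genes. Igll1, part of the surrogate light chain, fell by 0.21 ± 0.048. The kinase Lck fell by 0.37 ± 0.055 and its relative Fyn rose by 0.28 ± 0.040. The related surrogate light chain genes Vpreb1 and Vpreb2 can share reads, so the rise of Vpreb2 (0.12 ± 0.027) is uncertain. Of 21 surface antigens 8 rose and 4 fell, against the same 13.4% and 12%. Cd69, an early activation antigen, read 9.69, 9.67 and 9.63 and then 9.99, 10.19 and 10.26 (0.48 ± 0.067), and Cd55, which protects cells from complement, rose by 0.65 ± 0.096. Cd52 and Spn fell by 0.37 ± 0.061 and 0.20 ± 0.029. The 6 lower calls of the receptor list became 2 without 24 h replicate 1, 48 h replicate 2 or 48 h replicate 3 and 3 without 24 h replicate 3. Without 48 h replicate 3 the 8 higher surface antigens became 5.

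Cytokine and signalling genes of activated lymphocytes rose in part, where 13.4% of all tested genes were called higher and 12% lower. Tnf, which lies beside Lta and Ltb in the genome and encodes a cytokine of the same family, read 8.29, 8.29 and 8.34 at 24 h and 9.19, 9.24 and 9.28 at 48 h (0.93 ± 0.050, limma adjusted p = 2.71e-04). Ltb rose by 0.62 ± 0.095. These 3 genes were among 5 rising and 2 falling genes of 18 NF-kB targets, whose median of 0.12 compares with 0.11 in DMSO vehicle cells. The inhibitors Nfkbia and Nfkbie were not called. Without 24 h replicate 1, 24 h replicate 3, 48 h replicate 2 or 48 h replicate 3 the 5 rising NF-kB targets became 3. Of 26 genes induced by ERK signalling, 9 rose and 1 fell, among them Etv5 (0.36 ± 0.030), Phlda1 (0.52 ± 0.059) and the phosphatase genes Dusp4 (0.39 ± 0.057) and Dusp6 (0.20 ± 0.030). The kinase gene Pim1, a STAT5 target, rose by 0.35 ± 0.037, whereas Il7r, the receptor of interleukin 7, fell by 0.35 ± 0.055.

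Homing genes had a median of 0.21, with 7 of 15 higher and 2 lower, against 13.4% and 12% of all tested genes. Cxcr5, a chemokine receptor of follicles, was at a low level and read 6.77, 6.94 and 6.88 at 24 h and 7.51, 7.80 and 7.94 at 48 h (0.89 ± 0.11). Itgal, the alpha chain of the integrin LFA-1, rose by 0.54 ± 0.065. The 7 became 4 without 24 h replicate 1 or 48 h replicate 2. Of 17 clock genes, 6 rose and 2 fell, the share lower being near the 12% of all tested genes. The repressors Bhlhe40 and Bhlhe41 rose by 0.70 ± 0.079 and 0.55 ± 0.080 and Nfil3 by 0.50 ± 0.087, while Nr1d2 fell by 0.50 ± 0.066. The core genes Arntl, Clock, Per1 and Per2 were not called.

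In iron and redox metabolism, Fth1, the ferritin heavy chain that stores iron, read 13.18, 13.15 and 13.24 at 24 h and 13.41, 13.44 and 13.54 at 48 h (0.27 ± 0.039), and Hmox1, which frees iron from heme, rose by 0.69 ± 0.12. Tfrc, whose fall is given above, also handles iron, but no list of iron genes was examined. The NRF2 list to which Fth1 and Hmox1 belong had 5 genes higher and 3 lower among 21, against 13.4% and 12% of all tested genes, and 3 higher without 24 h replicate 1, 24 h replicate 2, 48 h replicate 2 or 48 h replicate 3. Of 29 lysosome and autophagy genes, 12 rose and 1 fell, with Sqstm1, an autophagy receptor, at 0.44 ± 0.052 and Psap, a lysosomal cofactor, at 0.29 ± 0.026. The 13 mitochondrially encoded genes had 6 lower and none called higher (none at an unadjusted p under 0.05), and mt-Nd6, which is encoded on the opposite strand from the others, fell by 0.47 ± 0.044. Their count was 4 without 24 h replicate 1, 24 h replicate 3 or 48 h replicate 3. Of 20 glycolysis genes 5 rose and 3 fell (0 or 1 lower without each library other than 48 h replicate 1), Pfkp (0.40 ± 0.038) and Aldoa (0.24 ± 0.030) having the smallest adjusted p.

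Of 10 tested genes that handle ethanol, aldehyde and acetate, 4 rose and none was called lower by limma (none at an unadjusted p under 0.05). Among all tested genes 13.4% were higher and 12% lower. The 4 that rose were Acss1, which activates acetate in mitochondria (0.25 ± 0.032), Aldh2, which oxidises acetaldehyde (0.11 ± 0.026), Adh5 (0.12 ± 0.032) and Acss2 (0.26 ± 0.080). The count was 1 without 24 h replicate 1 or 48 h replicate 3, 2 without 24 h replicate 2 or 48 h replicate 2, and 3 without the others. None of the 4 was called in the test of the difference from DMSO cells, which called 0.793% of tested genes. The median standard error of the DMSO change was 0.091, so that test could miss differences of this size and cannot show that the changes were alike.

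Foxo1 (chr3:52268336-52353221, plus strand), the floxed gene, read 9.88, 9.84 and 9.80 in ethanol cells at 24 h and 10.02, 10.11 and 10.07 at 48 h (0.23 ± 0.041, limma adjusted p = 0.00697). It read 9.34 to 9.74 in DMSO cells over both times and 7.99 to 8.27 in 4-OHT cells. The ethanol libraries therefore lay above every library of the cells in which Cre had been switched on. Of 29 FOXO targets 9 rose and 5 fell, against 13.4% and 12% of all tested genes, with a median of 0.11. The direction was mixed: Cited2 (0.34 ± 0.043), Tsc22d3 (0.64 ± 0.10) and Pik3ip1 (0.37 ± 0.051) rose, and Il7r, Rag1 and Fbxo32 fell. The 9 higher calls became 5 without 24 h replicate 1 or 48 h replicate 2, and the 5 lower calls 3 without 48 h replicate 3.

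**Figure D3:**
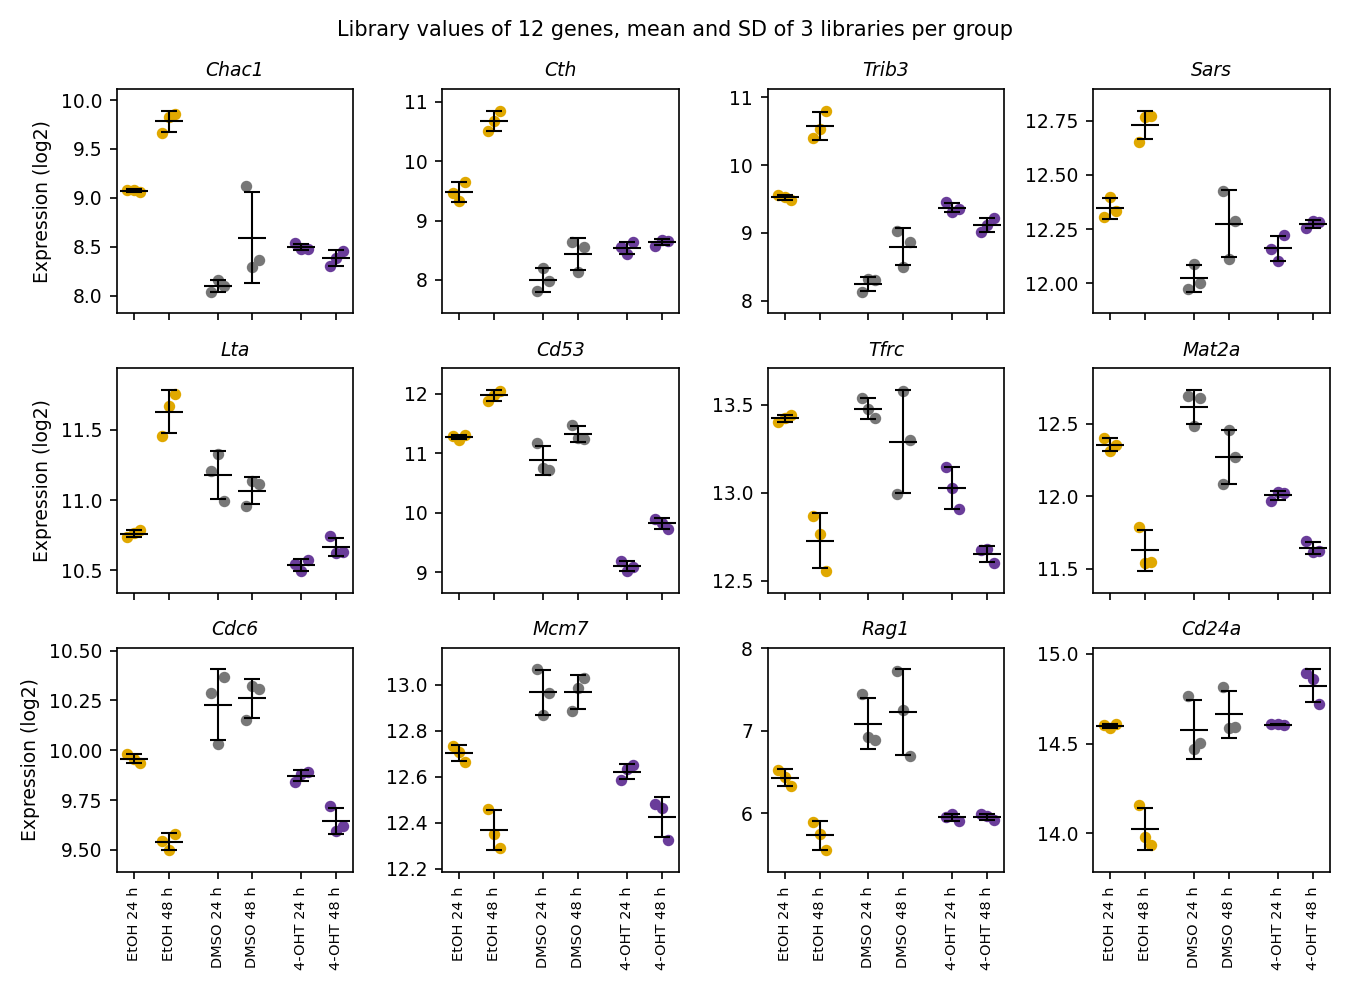
Library values (log2, vertical axes differ between panels) of 12 genes in ethanol, DMSO and 4-OHT cells at 24 h and 48 h, with 1 point per library and the mean and SD of 3. In Chac1, Cth and Trib3 the ethanol libraries lie above those of the other treatments at the same time, and they rise further by 48 h.

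The same extra day in DMSO vehicle cells gave changes with a larger error and some of the same directions. The median standard error was 0.091 in DMSO cells and 0.059 in ethanol cells, and limma called 1 gene in DMSO cells, the predicted gene Gm10698, with 1169 genes at an unadjusted p under 0.05. Among the ethanol calls, 1901 moved in the same direction in DMSO cells (65.4%, against 56.4% of all tested genes). Across the 11470 genes, which share one normalisation, Pearson's r of the 2 changes was 0.22 and Spearman's rho 0.20. ATF4 targets had a median of 0.22 in DMSO cells against 0.40 in ethanol cells, cholesterol genes 0.33 against 0.15, and replication genes -0.04 against -0.23. Trib3, for example, read 8.13, 8.32 and 8.30 in DMSO cells at 24 h and 9.03, 8.50 and 8.87 at 48 h, so that both DMSO groups lay below the ethanol cells of 24 h.

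A test of the difference between the changes called 91 genes (0.793%), 48 with the ethanol change above the DMSO change and 43 below, and 79 of the 91 had opposite signs. Lta, which rose in ethanol cells, read 11.21, 11.33 and 10.99 and then 10.95, 11.14 and 11.11 in DMSO cells, and the changes differed by 0.98 ± 0.13 (limma adjusted p = 0.0159). Tmprss3 read 9.45, 9.38 and 9.74 and then 10.28, 9.81 and 9.85 in DMSO cells, opposite in direction to ethanol cells. The changes of Slamf6 and Cd24a differed as well. Of the 31 ATF4 targets 4 differed, of the 20 synthetases 1 and of the 34 replication genes none, with the ethanol change above the DMSO change in these 5. The count of 91 rests on single libraries, and all 10 genes named for this difference lose the call without at least 1 of the 12 libraries. It was 2 to 6 without 24 h replicate 1, 2 or 3 or 48 h replicate 2 or 3 of the ethanol cells, 3 and 15 without DMSO 48 h replicate 2 and 24 h replicate 2, 52 without DMSO 48 h replicate 3, and 148 and 212 without DMSO 48 h replicate 1 and 24 h replicate 3. The solvent, the culture and any run that the vehicle arms do not share cannot be told apart.

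In 4-OHT cells, which lose Foxo1, the extra day brought 2556 calls (22.3%), 1220 higher and 1336 lower. Both treatments called 973 genes, which is 33.5% of the ethanol calls and 38.1% of the 4-OHT calls, and 800 of them moved in the same direction. Of the ethanol calls, 70.2% had the same sign in 4-OHT cells, against 60.4% of all tested genes, with a Pearson's r of 0.30 and a Spearman's rho of 0.30 across genes. Cd53 rose by 0.72 in 4-OHT cells and 0.70 in ethanol cells, and Tfrc fell by 0.38 and 0.70. Replication genes fell in both, with 17 of 34 called lower and a median of -0.18 in 4-OHT cells.

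Amino acid genes separated the treatments. The difference between the changes was called for 1790 genes (15.6%), 1036 with the ethanol change above and 754 below, and 908 of the ethanol calls were among them (31.2%). It was called for 26 of 31 ATF4 targets and for 17 of 20 synthetases, in each case with the ethanol change above. In 4-OHT cells the ATF4 targets had 3 higher and 14 lower calls with a median of -0.14, and the synthetases had none higher and 15 lower with a median of -0.18. Chac1 read 8.54, 8.48 and 8.48 and then 8.30, 8.38 and 8.46 in 4-OHT cells, where its ethanol values had risen to 9.66 or higher. Asns, Slc7a5 and Mthfd2 fell by 0.31, 0.32 and 0.14 in 4-OHT cells. Of 30 ribosome biogenesis genes 19 differed, all with the ethanol change above, and 26 of the 30 fell in 4-OHT cells. Of the ERK-induced genes 9 of 26 differed, all with the ethanol change above. Of the B-lineage factors 9 of 22 differed, 8 with the ethanol change below.

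**Figure D4:**
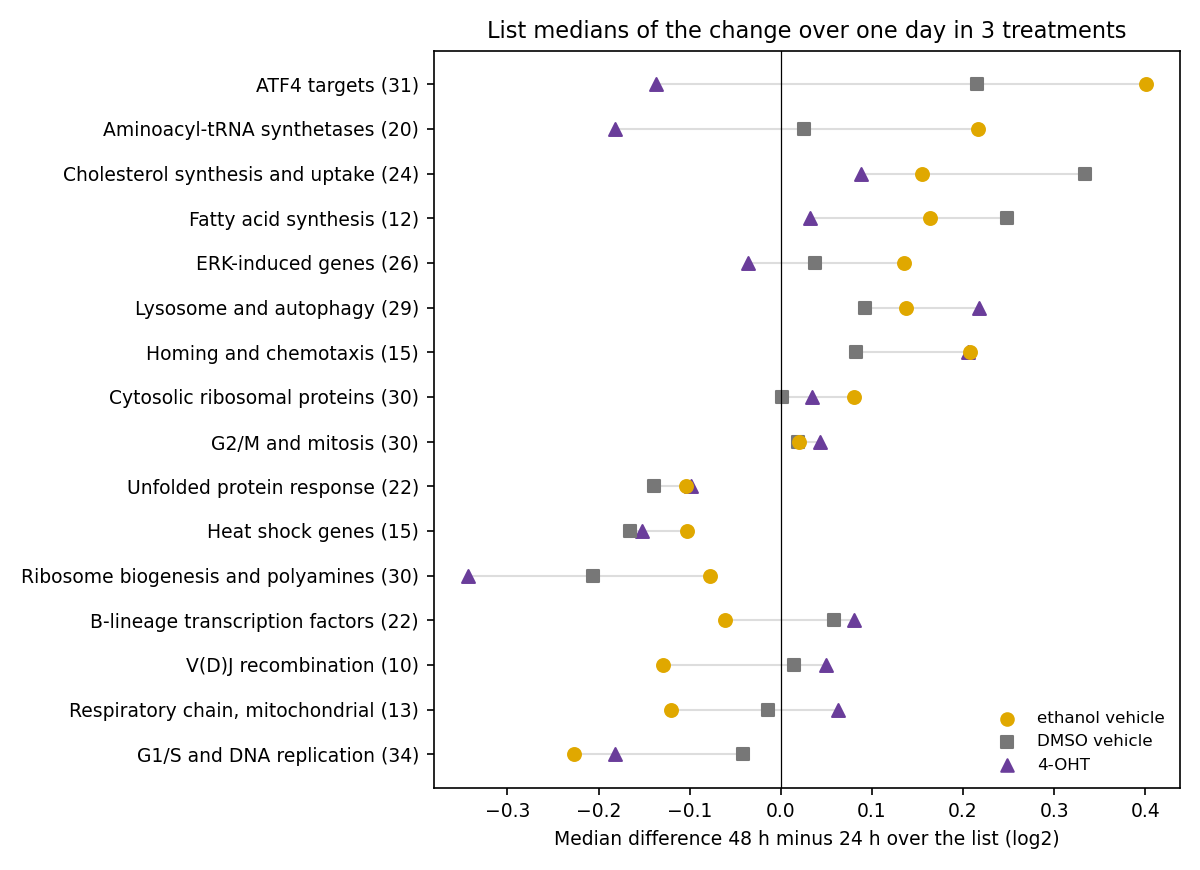
Median change from 24 h to 48 h (log2, horizontal axis) of 16 gene lists in ethanol vehicle, DMSO vehicle and 4-OHT cells, with the number of tested genes in brackets. The ATF4 list reads 0.40, 0.22 and -0.14 in that order, and the synthetases 0.22, 0.03 and -0.18.

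Ahnak, a large scaffold protein, moved in opposite directions: it fell by 0.75 in ethanol cells and read 10.96, 10.81 and 10.34 and then 11.42, 11.33 and 11.47 in 4-OHT cells. H19, an imprinted non-coding RNA, fell less in ethanol cells than in 4-OHT cells. It read 13.29, 13.34 and 13.29 and then 13.25, 13.14 and 13.16 in ethanol cells, and 14.39, 14.44 and 14.51 and then 13.22, 13.22 and 13.21 in 4-OHT cells, so that the treatments met at 48 h. Gpt2 rose by 0.76 in ethanol cells and changed by -0.21 in 4-OHT cells, a difference of 0.97 ± 0.11 (limma adjusted p = 1.23e-04). The ethanol cells and the 4-OHT cells share the solvent. They differ in the drug, in the Cre that it switches on and in Foxo1, and these cannot be told apart here.

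The ethanol cells expressed all 10 B-lineage markers, the mean levels running from 6.09 to 14.3. Of markers of other cells, 4 of 12 myeloid, none of 11 T and NK, none of 8 erythroid, 1 of 4 megakaryocyte and 1 of 10 stromal or endothelial genes passed the low filter. The neutrophil genes Elane, Ly6g, S100a8 and S100a9, the globin genes and Cd4 stood at 0 in every library of the series. Summed on a linear scale, the myeloid markers ran from 141 to 162 at 24 h and from 147 to 171 at 48 h, and the T and NK markers from 26.7 to 27.1 and from 25.9 to 26.9. The B-lineage markers ran from 88101 to 89960 at 24 h and from 72960 to 79972 at 48 h. Cd24a, whose fall is given above, had the highest mean of the 10 and weighed most in this sum. The sum therefore does not show a like fall of all 10 markers. The plasma cell markers ran from 3903 to 3985 and from 4509 to 5209, with Xbp1 called higher and Sdc1, Prdm1 and Igj not called.

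The change in ethanol cells varied weakly with transcript length (Spearman's rho of -0.07 across genes). With the tested genes split into 10 groups of about equal size by transcript length, in the group with the longest transcripts (6649 bases and longer, 1144 genes) the median change was -0.05 in ethanol cells, with 108 genes higher and 213 lower, against 0.04 in DMSO cells and 0.03 in 4-OHT cells. The other 9 groups had medians from -0.01 to 0.02 in ethanol cells. For single ethanol libraries, each gene was centred on its mean. The median of the longest group minus that of the 5 shortest was 0.071, 0.094 and 0.032 at 24 h. At 48 h it was 0.012, 0.046 and -0.029, so the libraries of the times overlapped. Among the 24 genes with the largest changes, 2 falls and 1 rise lay in the longest group, Ahnak (18100 bases) and Mdn1 (17970 bases) being the falls. With every library adjusted for length, an alternative chosen after seeing the data, they still fell by 0.64 and 0.48, the ATF4 list still had 23 genes higher, the synthetases 15, and the replication list had 30 lower. Under that adjustment 177 of 180 named genes kept their direction and their side of the threshold and 3 lost the call, while the higher calls became 10 among the cholesterol genes, 5 among the fatty acid genes and 3 among the genes of G2 and mitosis.

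**Figure D5:**
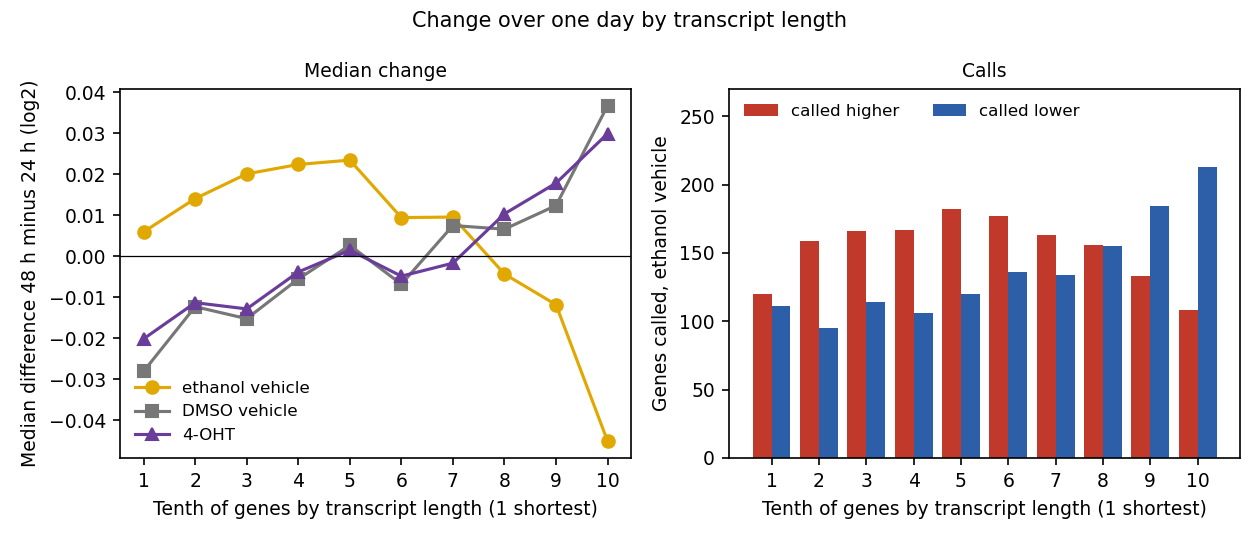
Left, median change from 24 h to 48 h (log2) in 10 groups of tested genes ordered by transcript length, for ethanol, DMSO and 4-OHT cells. Right, the number of genes called higher and lower in ethanol cells in each group, where the longest has 108 higher and 213 lower.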

How the data were processed

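RNA sequencing of 24 libraries in 8 groups was analysed from the authors' 4 processed tables, of which the 6 ethanol columns are described and the DMSO and 4-OHT columns serve for comparison. Group and replicate of each column follow the sample labels. The submitters' processing notes name STAR 2.7.11b, Salmon 1.1.1, DESeq2 1.44.0 and mm10 without tying a tool to a step. Strandedness is not given in the sources used here, which leaves antisense, overlapping and near-identical genes uncertain. The library and mean columns hold normalised log2 values deposited by the authors, and no header names the transformation. The log2 fold change and the adjusted p-value deposited by the authors served for the check of scale. All 41444 genes had the same mean column in the 4 tables, which puts the libraries on 1 scale.

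Genes with a mean of at least log2(11), a normalised count of 10, were kept (11470). limma 3.58.1 in R 4.3.3 fitted the 2 ethanol groups, and for differences the 4 groups involved, with a trended empirical Bayes variance. Tests were two-sided, with Benjamini-Hochberg adjustment across the tested genes. The fit was tested on simulated data. Errors marked ± are standard errors. GENCODE M21 gave positions and transcript lengths (11438 genes found), and 10 symbols were filled by identifier. The comparison, its 46 gene lists (932 entries, 804 tested) and the naming rule were chosen with earlier results of these data known. Named genes were the 12 largest rises and falls that were called, had a mean at or above the median, no overlap between times and no predicted or clone name, up to 4 genes per list in order of adjusted p, the 5 largest differences each way from DMSO and 4-OHT cells, Foxo1, and further list members needed to account for a list, and some of them are not reported here. Alternatives covered scaling, the low filter, the variance prior, all 24 libraries in one model, a replicate block, leaving out each library and, added after seeing the data, transcript length. matplotlib 3.10.9 under Python 3.11.15 drew the figures.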

Additional observations from a re-analysis of the deposited data

Results flagged for a closer look

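The genes given here were picked because a test of the difference found their change over the extra day to differ between ethanol cells and another treatment (limma, adjusted p under 0.05). They are the 5 with the largest difference each way among genes at or above the median. Each value is the ethanol change minus the other change on the log2 scale.

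Against DMSO vehicle cells the ethanol change was lower in Tmprss3 (-1.32), Ap4m1 (-0.81), Slamf6 (-0.81), Kmt2a (-0.74) and Cd24a (-0.66). All 5 fell in ethanol cells, and their DMSO changes were 0.46, 0.33, 0.18, 0.21 and 0.08, none of them called. It was higher in Lta (0.98), Sema7a (0.73), Rgs10 (0.61), Fgl2 (0.60) and Prdx5 (0.53). Of these, Lta, Fgl2 and Prdx5 rose in ethanol cells, whereas Sema7a and Rgs10 were not called there (0.03 and 0.10), and their DMSO changes were -0.69 and -0.51.

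Against 4-OHT cells the ethanol change was lower in Ahnak (-1.45), Sp1 (-1.12), Ighg2b (-1.07), Tmprss3 (-1.04) and Msh5 (-0.93). Ighg2b, an immunoglobulin constant region with near-identical copies, was not called in ethanol cells (0.03). The ethanol change was higher in H19 (1.104), Tubb3 (1.00), Gpt2 (0.97), Vat1l (0.86) and Gpsm2 (0.83). H19 fell by 0.13 in ethanol cells and by 1.23 in 4-OHT cells, and Vat1l was not called in ethanol cells (-0.04). Drug, active Cre, Foxo1 state and culture cannot be told apart in the differences from 4-OHT cells. In those from DMSO cells, solvent, culture and any run not shared cannot be told apart. No cause was tested. The 10 genes of the 4-OHT contrast kept the call without each of the 12 libraries in turn. Those of the DMSO contrast each lost it without at least 1.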

How the results depend on the processing

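The 2908 calls became 1689 with no low filter and 1332 with all 24 libraries in one model. Without each library in turn they ran from 1704 to 2858, and under aligned medians, quantile normalisation, genes at or above the median mean, no variance trend and length adjustment from 2137 to 3004. The 91 differences from DMSO cells became 85 with aligned medians, 21 with no low filter, 270 with all 24 libraries and 2 to 212 without each library in turn. The 1790 differences from 4-OHT cells became 453 with all 24 libraries, and 1278 to 1718 without each library. The fits without a library held fewer samples and the unfiltered fit more genes, and the cause of the other shifts was not tested. Of 180 named genes, 108 kept direction and side of the threshold with all 24 libraries in one model and 157 with no low filter. Signs changed only in 2 genes that were not called and lay near 0: without each library in turn Sema7a ran from -0.00017 to 0.072 and Vat1l from -0.10 to 0.0093. The labels do not say whether equal replicate numbers pair the libraries. The deviations of same-numbered ethanol libraries from their group means correlated at -0.01 to 0.07, which cannot show whether those libraries shared a culture. A replicate block gave 2889 calls, and 8 differences from DMSO cells and 1303 from 4-OHT cells. Depth is unknown, so counting error cannot be given.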

Other observations

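Genes below the median level, which the naming rule leaves out, held some of the largest changes; these were chosen after their values were seen. Cox6a2, a muscle-type subunit of cytochrome c oxidase, read 5.42, 5.13 and 5.40 at 24 h and 6.51, 7.05 and 7.28 at 48 h (1.63 ± 0.18, limma adjusted p = 0.00145), and its change was 0.26 in DMSO cells and 0.40 in 4-OHT cells. Fam129a read 4.38, 4.41 and 4.58 and then 5.49, 5.93 and 6.64 (1.56 ± 0.24, limma adjusted p = 0.00389), with changes of 0.19 and 0.14 in the other treatments. Ppp1r3b, a glycogen-targeting subunit of protein phosphatase, read 4.47, 4.48 and 4.48 and then 5.83, 5.68 and 5.92 (1.33 ± 0.081, limma adjusted p = 2.71e-04), and changed by 0.89 in DMSO cells and -0.29 in 4-OHT cells. In all 3 genes the ethanol libraries of the 2 times did not overlap.

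Genes of antigen presentation and cell death were also measured. Of 8 MHC class II genes 3 rose and limma called none lower (none at an unadjusted p under 0.05), with H2-Ab1 at 9.05, 9.11 and 9.09 and then 9.50, 9.69 and 9.71 (0.55 ± 0.061). Of 22 p53 targets 6 rose and 2 fell, against 13.4% and 12% of all tested genes, with 4 higher without 48 h replicate 3 and 0 or 1 lower without each library other than 48 h replicate 3. Pmaip1 and Bbc3, which encode the death promoters NOXA and PUMA, rose by 0.55 ± 0.11 and 0.44 ± 0.098, and Mcl1 and Bcl2l11, a survival factor and the death promoter BIM, fell by 0.15 ± 0.029 and 0.20 ± 0.056. Of 26 interferon-stimulated genes 4 rose and 1 fell, a share of higher calls near the 13.4% of all tested genes, and 2 were higher without 24 h replicate 3 or 48 h replicate 3. The endothelial and leukocyte gene Pecam1 fell by 0.28 ± 0.050.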
